A study of Mus musculus with 6 samples.

Results

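Pomc and 9 other genes that encode hypothalamic neuropeptides (Agrp, Npy, Gal, Sst, Trh, Gnrh1, Ghrh, Kiss1 and Cartpt) were followed in cultured hypothalamic neural stem and progenitor cells (NSC/NPCs). The 10 genes were chosen by name, with their read counts and RPKM (reads scaled to the gene length in kilobases and to the total reads of the sample) in these same samples already known, so their own values are given as a description and without a test. Of the 10, 9 had a row among the 22048 genes of the table, and Kiss1 was not analysed here. RNA-Seq had been done on first-passage neurospheres grown from the hypothalamus of male C57BL/6 fetuses at E14.5, whose dams were 8 weeks old in both groups. In the HE group, estradiol valerate (100 μg/kg/d) was given to the dams by gavage between E5.5 and E11.5. In the NC group the protocol gives the solvent, corn oil, whereas the treatment label reads untreated. Each group had 3 samples (NC1 to NC3 and HE1 to HE3), each from 2 mice, and no source ties a given sample to separate litters, so the p-values measure the spread between these samples. The cells had been expanded in culture as spheres, so fetal hypothalamic neurons were not sampled directly. Counted reads ranged from 16078675 to 19137059 per sample, and 1 read on a gene of 1 kilobase is worth 0.0523 to 0.0622 RPKM.

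Neuropeptides are made as longer precursors that are cut in the secretory pathway, stored in dense-core granules and released to act on G-protein-coupled receptors. In the arcuate nucleus, neurons that make pro-opiomelanocortin (Pomc), often together with the CART peptide of Cartpt, restrain feeding through melanocortin receptors, and neighbouring neurons that make Agrp and Npy oppose them. Pomc is also the ACTH precursor of pituitary corticotrophs. Gnrh1 neurons drive the gonadotropes and are under the control of Kiss1 neurons, while Trh, Ghrh and Sst regulate pituitary thyrotropin and growth hormone, and galanin (Gal) is a widespread modulator. Most of these genes are known as markers of differentiated neurons rather than of dividing progenitors. In whole-culture RNA, fewer cells of a type and less RNA per cell cannot be told apart.

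One library stood apart and bears on every result for Pomc. NC1 had 14 genes at least 2 log2 units (log2(RPKM + 0.1)) above the next highest sample, among 14032 genes with at least 10 reads there, whereas HE3 had 7 such genes and the 4 other samples had 0 or 1. Pomc was the second of the 14, after growth hormone (Gh). Of the other members, Agrp alone also had its highest level in NC1.

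The promoters of 3 genes are shown because these genes carry the main patterns. Pomc and prolactin (Prl) were both highest in NC1, and Cartpt was lower in every HE sample than in every NC sample. The 250 bases before the RefSeq start are given 5′ to 3′ on the gene's strand (GRCm38.p6), at chr12:3954695-3954944 on the plus strand for Pomc, chr13:27057320-27057569 on the plus strand for Prl and chr13:99900684-99900933 on the minus strand for Cartpt. Capitals mark the TATA box (TATAAA), the core of the cyclic AMP response element (TGACGT) and the binding site of the pituitary factor Pou1f1 (ATGNATA), each searched on both strands.
Pomc: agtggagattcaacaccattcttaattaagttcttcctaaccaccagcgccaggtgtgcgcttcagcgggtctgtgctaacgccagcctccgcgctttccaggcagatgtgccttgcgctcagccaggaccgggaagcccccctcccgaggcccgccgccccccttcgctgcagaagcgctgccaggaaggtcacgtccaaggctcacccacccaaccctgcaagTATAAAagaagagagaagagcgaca
Prl: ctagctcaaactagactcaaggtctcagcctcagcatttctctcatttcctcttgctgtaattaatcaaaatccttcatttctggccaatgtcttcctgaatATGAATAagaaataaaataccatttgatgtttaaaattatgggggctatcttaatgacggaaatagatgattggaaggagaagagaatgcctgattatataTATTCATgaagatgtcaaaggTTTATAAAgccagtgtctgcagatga
Cartpt: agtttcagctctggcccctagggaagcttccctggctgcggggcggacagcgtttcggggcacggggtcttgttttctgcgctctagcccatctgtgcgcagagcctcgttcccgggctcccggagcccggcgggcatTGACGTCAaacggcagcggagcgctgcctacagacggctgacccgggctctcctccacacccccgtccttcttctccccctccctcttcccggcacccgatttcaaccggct

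The Pomc promoter held a TATA box from -25 to -20 relative to the start, as did the Prl promoter with matches on both strands that overlap, and the Cartpt window held none. A TATA box is found in 12.97% of the 27025 RefSeq promoters. Cartpt had a cyclic AMP response element that reads on both strands, from -112 to -105, against 6.56% of promoters with a match, and Prl had 2 Pou1f1 matches, against 8.16%. The E-box (CANNTG, in 66.0% of promoters) was matched 2 times in Pomc, 2 times in Prl and 1 time in Cartpt. The windows of these 3 genes held no match to the T-box site TCACACC (3.31% of promoters), to the Pitx site written as TAATCC or TAAGCC (14.0%), or to the palindromic estrogen response element (GGTCA, 3 spacer bases, TGACC), which is itself in 0.0629% of promoters. The GC content was 60% for Pomc, 35.2% for Prl and 66.8% for Cartpt, beside a median of 52% for all promoters. These matches describe the letters of the windows and say nothing of binding.

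Pomc (ENSMUSG00000020660, GRCm38.p6 chr12:3954945-3960643) was abundant in 1 sample and low in the other 5. It had 5717 reads in NC1, 75 in NC2 and 42 in NC3, and 45, 35 and 25 reads in HE1, HE2 and HE3. The corresponding levels were 302.5, 3.89 and 2.20 RPKM in NC and 2.50, 1.82 and 1.54 RPKM in HE. NC1 was 77.7-fold above NC2, while the 5 other samples lay within a 2.52-fold range and their groups overlapped. The exact 95% Poisson interval of the reads was 5570 to 5867 in NC1, 59.0 to 94.0 in NC2 and 16.2 to 36.9 in HE3, so counting error does not span the gap, and such intervals cover counting error alone. Among all genes of a sample Pomc ranked 164 in NC1 and 8440 to 10236 elsewhere.

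The group difference of Pomc was therefore set by NC1. The means were 103 ± 173 RPKM in NC against 1.95 ± 0.489 RPKM in HE (SD, n = 3 per group), and the mean log2(RPKM + 0.1) was lower in HE by a difference of -2.80. Without NC1 the NC mean was 3.05 RPKM and the log2 difference -0.59, and with any 1 sample left out the difference ranged from -4.11 to -0.59. Pomc took 0.0305% of the counted reads of NC1 (exact 95% binomial interval 0.0297 to 0.0313%) and 0.000155 to 0.000392% elsewhere. It made up 95.5% of the reads of the 9 measured members in NC1 and 13.8 to 28.1% of them in the other samples.

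**Figure D1:**
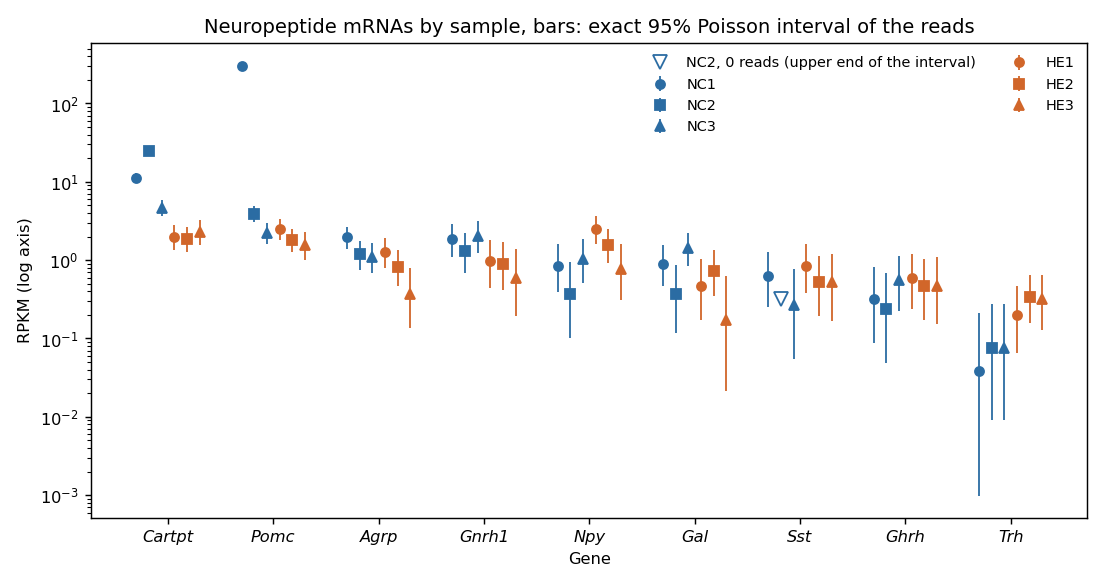
RPKM (log axis) of the 9 measured neuropeptide genes in the 3 NC and the 3 HE samples, 1 point per sample, with bars for the exact 95% Poisson interval of the reads and an open triangle at the upper end of the interval for 0 reads. Pomc in NC1 stands at 302.5 RPKM, 77.7-fold above NC2, while Cartpt is the member with the 3 NC points well above the 3 HE points.

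Cartpt (ENSMUSG00000021647, chr13:99898483-99910179), the precursor of CART, had the largest difference of the 9 members that did not rest on 1 library. It had 184, 419 and 77 reads in NC1, NC2 and NC3 and 31, 31 and 32 reads in HE1, HE2 and HE3, that is 11.2, 25.1 and 4.65 RPKM against 1.98, 1.86 and 2.28 RPKM. Every HE sample was below every NC sample, the NC samples were spread widely and the HE samples were nearly equal. The means were 13.6 ± 10.4 and 2.04 ± 0.215 RPKM (SD, n = 3 per group), and the log2 difference, HE minus NC, was -2.37, ranging from -2.98 to -1.78 with 1 sample left out. Such a separation, with all HE samples lower, was found in 17.9% of the 13952 genes tested, and with all HE samples higher in 14.8%. Among the 9 members, 2 lay below (Cartpt and Gnrh1), 1 lay above (Trh) and 6 overlapped, and since the members were chosen with these values in view nothing is read from those counts.

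Agrp, which encodes the melanocortin receptor antagonist, was low in every sample. Agrp (ENSMUSG00000005705, chr8:105566695-105579845) had 37, 23 and 21 reads in NC1 to NC3 and 23, 16 and 6 reads in HE1 to HE3, or 1.95, 1.19 and 1.09 against 1.27, 0.828 and 0.368 RPKM. The groups overlapped, with NC1 highest and HE3 lowest. The log2 difference was -0.80 and ranged from -1.15 to -0.38 with 1 sample left out. Npy (ENSMUSG00000029819, chr6:49822710-49829507), which is made by the same arcuate neurons in the adult, had 9, 4 and 11 reads in NC1 to NC3 and 25, 17 and 7 reads in HE1 to HE3. In RPKM these were 0.847, 0.369 and 1.03 against 2.47, 1.57 and 0.769. The HE1 and HE2 values lay above the NC samples and HE3 lay within them, and the log2 difference was 0.97 (0.59 to 1.38 with 1 sample left out). Agrp and Npy thus had differences of opposite sign, each with overlapping groups.

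Gnrh1, the gonadotropin-releasing hormone precursor, was lower in HE on few reads. Gnrh1 (ENSMUSG00000015812, chr14:67745181-67749440) had 18, 13 and 20 reads in NC1 to NC3 and 9, 9 and 5 reads in HE1 to HE3, 51 against 23 in all. The levels were 1.84, 1.30 and 2.03 RPKM against 0.965, 0.906 and 0.597 RPKM, with means of 1.72 ± 0.375 and 0.822 ± 0.198 RPKM (SD, n = 3 per group). The groups did not overlap, and the log2 difference was -0.99 with the pseudocount of 0.1 RPKM and -0.58 with a pseudocount of 1. The exact 95% Poisson intervals of the reads did overlap between samples of the 2 groups, with 6.92 to 22.2 reads in NC2 and 4.12 to 17.1 reads in HE1.

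Trh, the thyrotropin-releasing hormone precursor, was the single member with every HE sample above every NC sample. Trh (ENSMUSG00000005892, chr6:92242061-92244650) had 1, 2 and 2 reads in NC1 to NC3 and 5, 9 and 7 reads in HE1 to HE3, 5 against 21 in all. At 0.0385, 0.0755 and 0.0763 RPKM against 0.202, 0.341 and 0.315 RPKM it did not reach the filter on low values. Its log2 difference was 1.23 with a pseudocount of 0.1 and 0.27 with a pseudocount of 1, so the size of the difference is not fixed at this depth.

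The 2 peptides that act in opposite directions on growth hormone release were both low. Sst (ENSMUSG00000004366, chr16:23889573-23891342), the somatostatin precursor and the inhibitor of the pair, had 7, 0 and 3 reads in NC1 to NC3 and 9, 6 and 5 reads in HE1 to HE3. Ghrh (ENSMUSG00000027643, chr2:157329496-157348725), the stimulator, had 4, 3 and 7 reads in NC and 7, 6 and 5 reads in HE. Both overlapped between the groups, with log2 differences of 1.26 for Sst, which ranged from 0.48 to 1.90 with 1 sample left out, and of 0.42 for Ghrh. The exact 95% Poisson interval for the 0 reads of Sst in NC2 reaches 3.69 reads. Gal (ENSMUSG00000024907, chr19:3409915-3414544) had 12, 5 and 19 reads in NC and 6, 10 and 2 reads in HE, which also overlapped (log2 difference -0.81). Sst, Ghrh, Gal and Trh did not pass the filter on low values, while Pomc, Agrp, Npy, Gnrh1 and Cartpt did. Gnrh1 passed it through the NC samples alone, where it was higher, so nothing is read from its passing.

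The order of the members by RPKM differed between the samples. Cartpt was highest and Pomc second in NC2, NC3, HE2 and HE3, Pomc was highest in NC1 and HE1, and in HE1 Npy came second. The Pomc and Cartpt levels of the HE samples lay close together, at 2.50 and 1.98 RPKM in HE1, 1.82 and 1.86 RPKM in HE2, and 1.54 and 2.28 RPKM in HE3, and did not differ beyond their counting intervals. Trh was the lowest member in HE1 and HE2 and in NC1 and NC3, Sst in NC2 and Gal in HE3. Below Pomc and Cartpt the other 7 members had at most 37 reads in a sample.

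**Figure D2:**
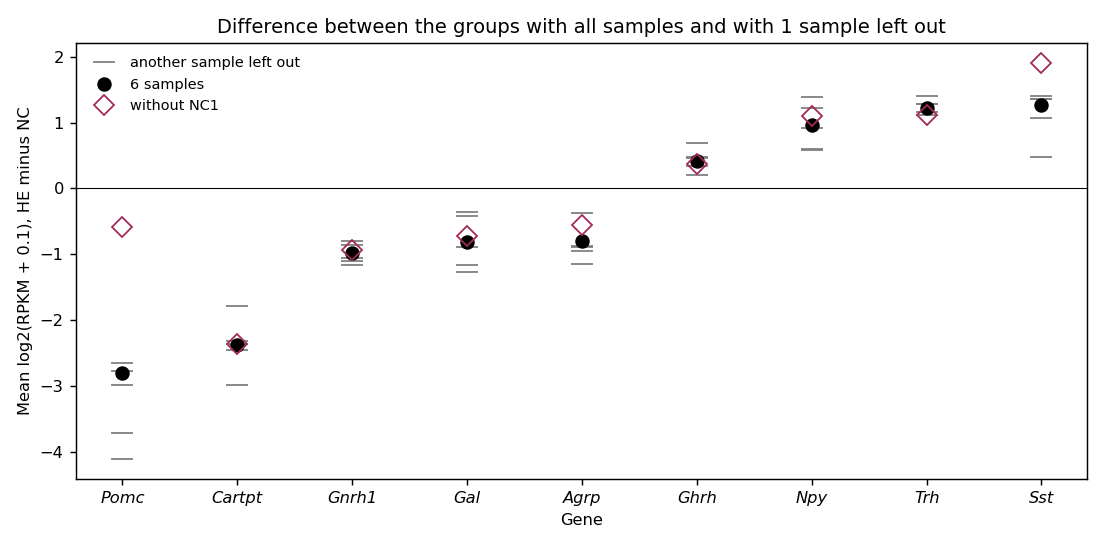
Difference of the mean log2(RPKM + 0.1), HE minus NC, for each measured neuropeptide gene, with all 6 samples and with each sample left out in turn. The Pomc value moves from -2.80 to -0.59 when NC1 is left out, whereas the Cartpt values stay between -2.98 and -1.78.

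The other genes that stood apart in NC1 included pituitary hormones and several genes known from epithelia, a description made after the 14 genes were seen. Gh had 716 reads in NC1 and 0 to 3 elsewhere, Prl 18 reads against 0 in the 5 other samples, and Fshb, the beta subunit of follicle-stimulating hormone, 10 reads against 0. Among the others were the airway enzymes Cbr2 (455 reads in NC1) and Cyp2f2 (46), the surfactant protein Sftpd (108), the polymeric immunoglobulin receptor Pigr (328), lactotransferrin Ltf (94), the mesothelial protein Msln (506) and E-cadherin Cdh1 (63). The log2 gap to the next sample was 7.13 for Gh, 6.24 for Pomc, 6.15 for Cbr2, 5.10 for Msln, 4.99 for Sftpd, 4.60 for Pigr, 3.55 for Prl and 3.41 for Ltf. Alox12e, Slc27a2 and Spint1 were the remaining genes of the 14.

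**Figure D3:**
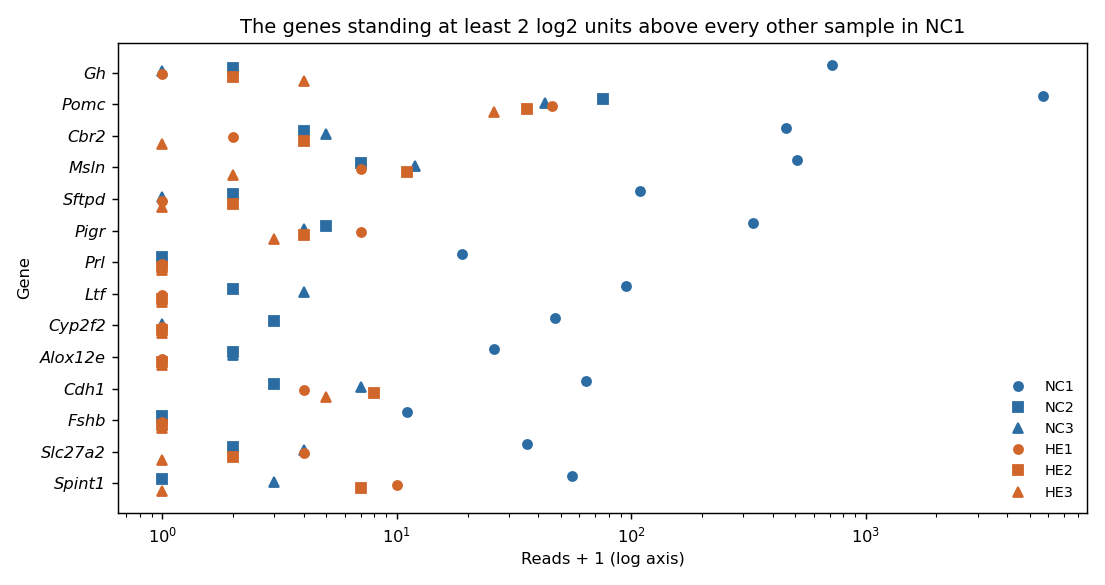
Reads plus 1 (log axis) in each sample for the 14 genes that stood at least 2 log2 units above every other sample in NC1. Gh (716 reads) and Pomc (5717 reads) have the widest gaps, and the 5 other samples lie together at the low end for each gene.

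The summed level of anterior pituitary markers was, like the Pomc level, highest in NC1. Of 16 listed markers, 11 were highest in NC1. The share of all genes highest there was not computed, so nothing is read from that count. The summed level of the 16 was 50.05 RPKM in NC1, 1.10 and 0.811 RPKM in NC2 and NC3 and 0.752 to 1.26 RPKM in HE. Without Gh the sum was 5.79 RPKM in NC1 and 0.535 to 1.26 RPKM in the others. The corticotroph factor Tbx19 had 19 reads in NC1, 0 in NC2 and NC3 and 1 or 2 in HE, the pituitary factor Pitx1 had 17 reads in NC1 and 0 to 4 elsewhere, and Lhx3 had 27 reads in NC1 and 2 to 6 elsewhere. Lhb, the luteinizing hormone beta subunit, had 24 reads in NC1 and 2 to 7 in the other samples. In contrast, Cga, the common subunit of the glycoprotein hormones, had 1 read in NC1 and 0 elsewhere, and Pou1f1 had 9 reads in NC1 against 6, 3, 2, 2 and 0. Of the 16 markers, 2 were at 0 in NC1 and 5 to 8 in each other sample, and 8 stayed under 10 reads in every sample. The part of pituitary or epithelial RNA in the Pomc level of NC1 was not tested.

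The genes with a pattern most like that of Pomc over the 6 samples, by Pearson's r of log2(RPKM + 0.1) among 14755 genes, were Cyp2f2 (0.996), Alox12e (0.993), Pigr (0.992), Sftpd (0.989), Prl (0.988), Actn2 (0.987), Trmt1l (0.985) and Ltf (0.985). Of the 8, 6 were among the 14 genes that stood apart in NC1, so these correlations are carried by that library. Actn2 and Trmt1l were not among the 14 but were also highest in NC1. Actn2 had 39 reads in NC1 and 21 to 29 elsewhere, and Trmt1l had 510 reads in NC1 and 311 to 393 elsewhere. With a pseudocount of 1, 6 of the 8 genes were again among the first 8.

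The genes on either side of Pomc on chromosome 12 did not stand apart in NC1. Efr3b, which lies 1911 bases beyond the end of Pomc and encodes a membrane protein that anchors a lipid kinase, had 8.63, 9.81 and 6.73 RPKM in NC1 to NC3 and 4.12, 3.22 and 2.25 RPKM in HE1 to HE3. The 3 HE samples were all lower than the 3 NC samples, with means of 8.39 ± 1.55 and 3.20 ± 0.935 RPKM (SD, n = 3 per group) and a log2 fold change of -1.39 (SE 0.25). Its unadjusted p in limma was 0.000718 and the Benjamini-Hochberg adjusted p was 0.195, and without NC1 the log2 fold change was -1.36. Dnmt3a, a de novo DNA methyltransferase 40502 bases before Pomc, had 11.46 ± 0.344 RPKM in NC against 9.80 ± 0.688 RPKM in HE, with a log2 fold change of -0.22 and an adjusted p of 0.276 in limma. Dtnb and Dnajc27 had log2 fold changes of -0.11 and -0.21, with adjusted p of 0.68 and 0.373 in limma.

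Genes that cut, amidate and store peptide precursors were then compared between the groups with limma, on 13952 genes that passed the filter. No gene of the whole table reached an adjusted p of 0.05 with a log2 fold change of 1 either way (0% of genes, smallest adjusted p 0.148), and 2858 genes had an unadjusted p under 0.05. By voom on the read counts the numbers were 0 and 2914. The study, with a count model not used here and the same cutoffs, did report differentially expressed mRNAs in both directions. At an unadjusted p under 0.05, 8.68% of genes were higher and 11.8% lower in HE, and the median log2 fold change of all genes was -0.06.

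All 16 listed processing and granule genes were tested, 0 were higher and 5 were lower at an unadjusted p under 0.05 (Furin, Pam, Scg2, Scg3 and Vgf), and their median log2 fold change was -0.41. The largest difference was in Vgf, a granule protein and peptide precursor, with 15.3, 14.3 and 16.1 RPKM in NC1 to NC3 and 5.94, 2.98 and 1.40 RPKM in HE1 to HE3. The NC samples were close together, every HE sample was lower and HE3 was lowest. The log2 fold change of Vgf was -2.34 (SE 0.45), with an adjusted p of 0.195 in limma, and -1.83 without HE3. Furin, the ubiquitous proprotein convertase, had 3.93 ± 0.00466 RPKM in NC against 2.20 ± 0.225 RPKM in HE (SD, n = 3 per group), a log2 fold change of -0.81 (SE 0.15).

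Scg3, a granin that sorts cargo into granules, had 38.5, 45.1 and 28.6 RPKM in NC1 to NC3 and 24.9, 21.0 and 19.6 RPKM in HE1 to HE3, with a log2 fold change of -0.76 (SE 0.18). Pam, the enzyme that amidates peptides, had 23.4 ± 3.46 RPKM in NC against 17.4 ± 3.51 RPKM in HE, with a log2 fold change of -0.44 (SE 0.18). The adjusted p in limma was 0.195 for Furin, 0.195 for Scg3 and 0.234 for Pam. Cpe, the carboxypeptidase that trims cut peptides, was by far the most abundant gene of the list, with 967, 1340 and 845 RPKM in NC and 837, 792 and 485 RPKM in HE. Its groups did not overlap, and its log2 fold change was -0.59 (SE 0.28) with an adjusted p of 0.267 in limma, and -0.34 without HE3.

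The convertases specific to neuroendocrine cells were low. In NC1, 6 of the 16 genes were highest, none of them among the 14 that stood apart there. Without the share of all genes highest in NC1, nothing is read from that count. Pcsk1, which cuts pro-opiomelanocortin to ACTH, had 0.312, 0.274 and 0.0977 RPKM in NC and 0.241, 0.178 and 0.307 RPKM in HE. Pcsk2, which cuts it further to melanocyte-stimulating hormone, had 1.23 RPKM in NC1 (182 reads) and 0.300 to 0.487 RPKM in the others. Chromogranin A (Chga) had 9.43 RPKM in NC1 and 2.73 to 5.06 RPKM elsewhere, and chromogranin B (Chgb) had 4.82 RPKM in NC1 and 1.48 to 2.54 RPKM elsewhere. The summed level of the 16 genes was 1144, 1517 and 995 RPKM in NC1 to NC3 and 978, 914 and 603 RPKM in HE1 to HE3, most of it from Cpe.

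**Figure D4:**
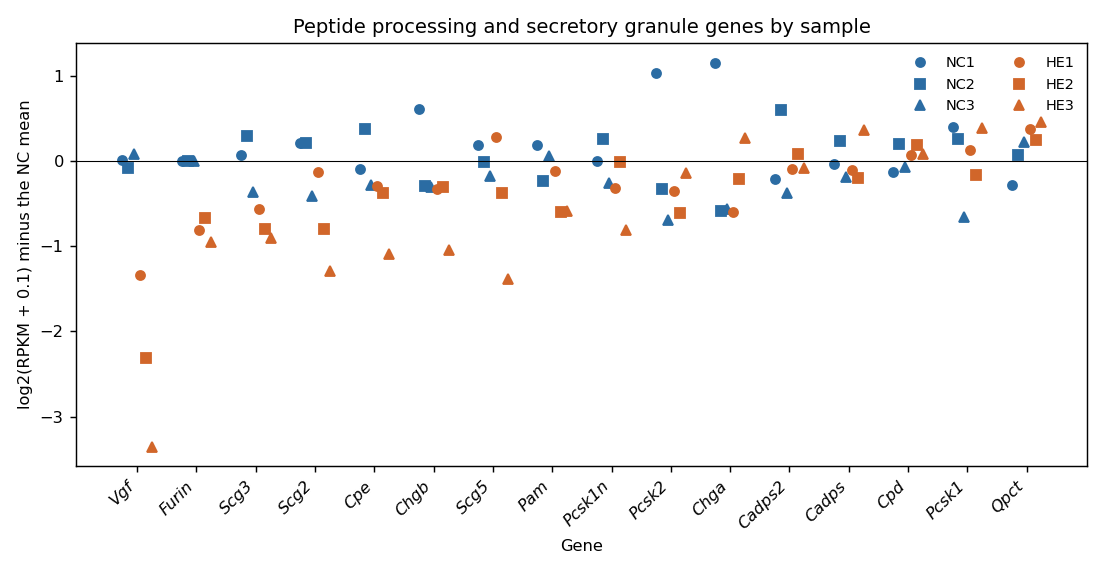
log2(RPKM + 0.1) minus the NC mean for the 16 peptide processing and secretory granule genes, 1 point per sample. The HE points of Vgf, Furin and Scg3 lie below the NC points, and NC1 is the highest sample for Pcsk2, Chga and Chgb.

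Receptors and cofactors for the peptides were sparsely covered, with 23 of 24 listed genes in the table, 12 of them under 10 reads in every sample and 7 tested. Among the 7, 2 were higher at an unadjusted p under 0.05 (Mc5r and Sstr2) and 0 lower, and the median log2 fold change was 0.07. Mc5r, a melanocortin receptor, had 5, 8 and 4 reads in NC1 to NC3 and 24, 12 and 13 reads in HE1 to HE3. Every HE sample was above every NC sample, with a log2 fold change of 1.30 (SE 0.32) and an adjusted p of 0.195 in limma. Mc5r passed the filter through the HE samples alone, so nothing is read from its place among the genes higher in HE. Sstr2, a somatostatin receptor, had 0.615 ± 0.157 RPKM in NC against 1.31 ± 0.651 RPKM in HE (SD, n = 3 per group), a log2 fold change of 0.91 (SE 0.34) and an adjusted p of 0.22 in limma, and 0.55 without HE3. Mc4r and Mc3r, the receptors through which melanocortins act on feeding, had 4 to 15 and 0 to 18 reads per sample and were not tested. Atrn, which encodes attractin, a protein required for agouti signaling, was the most abundant gene of the list and had 8.996 ± 0.808 RPKM in NC against 9.17 ± 0.298 RPKM in HE.

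Of 7 listed receptors for hormones that act on peptide neurons, 3 were tested. Insr, the insulin receptor, had 7.12 ± 0.957 RPKM in NC against 4.99 ± 0.400 RPKM in HE (SD, n = 3 per group), without overlap, and a log2 fold change of -0.50 (SE 0.15) with an adjusted p of 0.195 in limma. Nr3c1, the glucocorticoid receptor, had a log2 fold change of -0.24. The mean of Glp1r, the receptor of glucagon-like peptide 1, was 0.390 RPKM in NC against 1.89 ± 2.08 RPKM in HE, where HE3 alone reached 4.29 RPKM, and the log2 fold change was 1.69 with all samples and 0.86 without HE3. The leptin receptor Lepr had 5, 4 and 6 reads in NC and 25, 24 and 6 reads in HE, and estrogen receptor alpha (Esr1) had 4, 6 and 5 reads in NC and 6, 9 and 1 reads in HE. Lepr and Esr1 did not pass the filter.

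Most of the other hypothalamic neuropeptide genes gave hardly any reads. Of 34 listed, 23 stayed under 10 reads in every sample and 8 were tested, of which 0 were higher and 3 were lower at an unadjusted p under 0.05 (Qrfp, Npff and Prok2), with a median log2 fold change of -0.42. Oxt, the oxytocin precursor, had 0 or 1 read per sample, Avp, the vasopressin precursor, 0 to 5, and Crh, the corticotropin-releasing hormone precursor, 0 to 2. Prok2, a secreted peptide that acts as a circadian signal, had 47, 19 and 24 reads in NC1 to NC3 and 5, 18 and 3 reads in HE1 to HE3. Its log2 fold change was -1.51 (SE 0.48), with an adjusted p of 0.196 in limma. Npff, the neuropeptide FF precursor, had 0.826 ± 0.189 RPKM in NC against 0.392 ± 0.207 RPKM in HE, without overlap (log2 fold change -0.99, SE 0.37, and -0.60 without HE1). Npb, the neuropeptide B precursor, had means of 1.46 and 0.706 RPKM, and Nmb, the neuromedin B precursor, 3.48 ± 0.190 against 3.05 ± 0.355 RPKM. The most abundant member of the list, Nucb2, which encodes the nesfatin precursor, had 4.34 ± 0.824 RPKM in NC against 4.42 ± 1.26 RPKM in HE (SD, n = 3 per group).

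Transcription factors that specify peptide neurons were compared in the same way, with 9 of 23 listed genes tested and 12 under 10 reads in every sample. Six6 was higher at an unadjusted p under 0.05, 0 genes were lower, and the median log2 fold change was -0.52. Six6 had 12, 1 and 3 reads in NC1 to NC3 and 12, 13 and 13 reads in HE1 to HE3, so NC1 lay close to the HE samples. Its log2 fold change was 0.80 (SE 0.34), with an unadjusted p of 0.0496 and an adjusted p of 0.244 in limma, and 1.80 by voom. Nkx2-1, required for the arcuate nucleus and for Pomc neurons, had 2.73 ± 0.685 RPKM in NC against 1.72 ± 0.612 RPKM in HE (SD, n = 3 per group), a log2 fold change of -0.67 (SE 0.32) and an adjusted p of 0.268 in limma, and -0.36 without HE3. Isl1, a direct regulator of Pomc, had 8, 10 and 1 reads in NC and 5, 2 and 1 reads in HE, so its level in NC1 did not stand apart as that of Pomc did. Otp, a factor of Trh and Sst neurons, had 1 read in NC1 and 0 elsewhere. The mean of Dlx1 was 2.35 ± 2.10 RPKM in NC against 0.611 ± 0.513 RPKM in HE, with a log2 fold change of -1.75 (SE 0.84) and an adjusted p of 0.273 in limma. The Dlx1 value was -1.07 without NC1, -0.99 without HE3 and -2.41 without NC2.

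Markers of neurons and of progenitors were set beside the peptides, since most of the member genes are known as markers of differentiated neurons. Of 18 neuronal markers 16 were tested, 2 were higher (Map2 and Elavl4) and 1 lower (Gad2) at an unadjusted p under 0.05, and the median log2 fold change was -0.18. Gad2, which makes GABA, had 2.77 ± 0.766 RPKM in NC against 1.31 ± 0.102 RPKM in HE (SD, n = 3 per group) and a log2 fold change of -0.997 (SE 0.22), against 16.9 ± 0.356 and 23.9 ± 2.21 RPKM and 0.49 (SE 0.11) for Map2, a dendritic cytoskeleton protein. Both had an adjusted p of 0.195 in limma. The summed level of the neuronal markers was 167, 129 and 137 RPKM in NC1 to NC3 and 158, 146 and 284 RPKM in HE1 to HE3, and Gap43, a growth cone protein, alone gave 202 RPKM of the HE3 sum. Without Gap43 the sum was 91.8 RPKM in NC1 and 82.1 RPKM in HE3, with 56.8 to 71.2 RPKM in the others, and HE3 was the lowest sample for 5 of the 18 markers and the highest for 6. The 12 progenitor markers were all tested, 0 were higher and 2 were lower (Prom1 and Notch1), and their summed level was 3136 to 3778 RPKM in NC and 3009 to 4729 RPKM in HE. Prom1 had 5.28 ± 0.371 RPKM in NC against 2.98 ± 1.13 RPKM in HE, a log2 fold change of -0.87 with an adjusted p of 0.196 in limma, and -0.56 without HE3. Nes, the progenitor filament nestin, had means of 187 and 188 RPKM, and Vim, vimentin, had 1767 ± 36.8 and 1489 ± 265 RPKM. Fabp7 went the other way, with 1059 ± 298 RPKM in NC against 1656 ± 635 RPKM in HE, and its groups overlapped. It gave 2383 of the 4729 RPKM of HE3. Its log2 fold change was 0.62 (SE 0.33), with an adjusted p of 0.306 in limma, and 0.33 without HE3. Of the 12 log2 fold changes, 2 were positive and 10 negative. The part of cell composition in the Cartpt, Gnrh1 and Trh differences was not tested.

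**Figure D5:**
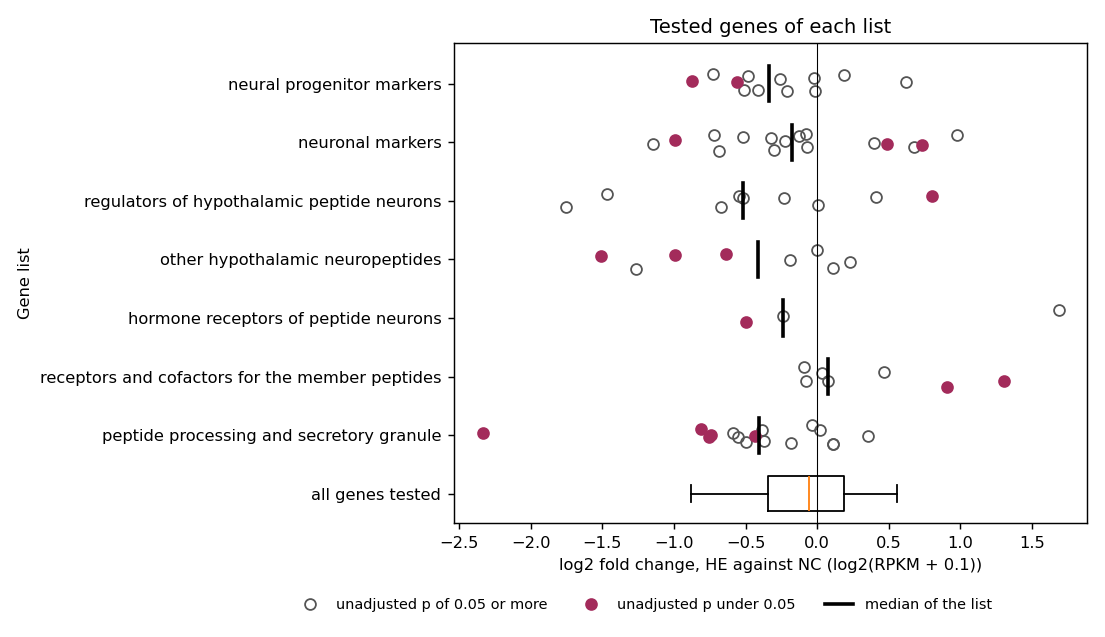
log2 fold change, HE against NC, of the tested genes of each list (points), above a box for the quartiles of all 13952 genes tested, with whiskers from the 5th to the 95th percentile. The medians are -0.41 for processing and granule genes, 0.07 for receptors, -0.24 for hormone receptors, -0.42 for other neuropeptides, -0.52 for regulators, -0.18 for neuronal and -0.34 for progenitor markers, against -0.06 for all genes.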

How the data were processed

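RNA-Seq libraries from 3 NC and 3 HE neurosphere samples were used. The authors aligned reads to the mouse genome, and the submitters' processing notes name CASAVA 1.7, TopHat2 and mm10. The counting tool, the annotation and whether strand was used are not given in the sources used here, so overlapping genes could share reads. The deposited table holds raw read counts made by the authors and RPKM values that the authors derived from count, gene length and sample total (checked, largest difference 4.99e-07). The study tested differences with a count model, which was not used here. No column of per-sample values was left unmapped.

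The members and gene lists were chosen with earlier results of these data known. Symbols were matched for 21781 identifiers, and coordinates and promoters are from RefSeq GRCm38.p6 (8 of the 10 members had a promoter). Genes entered the test with 15 reads or more over all samples and, in 3 or more samples, a rate of at least 10 reads per median-sized library (13952 of 22048 genes). limma 3.58.1 (R 4.3.3) with a mean-variance trend was fitted on log2(RPKM + 0.1) with group as the single term and Benjamini-Hochberg adjustment over all tested genes. Fold changes on this scale understate changes of low genes. The procedure was tested on simulated data. The named genes were the 10 members, from each list the 3 with the highest mean RPKM and the 3 tested ones with the largest fold change, the 8 most like Pomc, the 8 furthest above the next sample in NC1 and 2 neighbours on either side of Pomc. Other genes given with values were named after their values were seen. Alternatives were a pseudocount of 1, other filters, voom, median-of-ratios scaling, the replicate block and leaving out each sample. Poisson intervals cover counting error only. One listed regulator is not reported here.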

Additional observations from a re-analysis of the deposited data

How the results depend on the processing

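Of 181 values recomputed under an alternative, 171 stayed within the spread or count limit used and 10 moved. The limit for a member was pooled from the SDs of its own samples in each group. For Pomc, NC1 itself widened that limit (SD of log2(RPKM + 0.1) 3.85 in NC). The Pomc values of -0.59 without NC1 and -4.11 without NC3 therefore counted as within it, which does not make them stable. Of all 181, 4 changed sign, each without a filter beyond 1 read, and 2 of these counted as within the limit. Genes were called at an adjusted p under 0.05 with a log2 fold change of at least 1 either way. Their count ranged from 0 to 103 with 1 sample left out. The 103 were called without NC3, none of them a listed gene or a neighbour of Pomc, and the cause was not tested. The count was 0 with the replicate block, where 3184 genes had an unadjusted p under 0.05. The smallest adjusted p in limma was 0.0556 with the block and 0.148 without it. Deviations of same-numbered samples correlated at 0.156 for number 1, 0.0869 for number 2 and 0.0603 for number 3. Samples of unlike number correlated at -0.0764 to -0.00115, so each sample correlated best with its own number. Since not every pair passed 0.1, the numbers were not taken as pairs, but pairing is not excluded. With 1 sample left out the median log2 fold change of the receptors ranged from 0.021 to 0.26 (0.26 without NC1) and that of the neuronal markers from -0.36 to -0.10 (-0.36 without NC2). Without a filter beyond 1 read, the median was 0.071 for hormone receptors, 0.0049 for the other neuropeptides and -0.058 for the regulators, as well as -0.025 for the receptors and -0.27 for the pituitary markers (0.07 and 0.45 with the filter), where more genes of few reads entered. For the other neuropeptides it was -0.18 with a pseudocount of 1 and -0.096 with at least 10 reads in every sample. The pseudocount of 1 gave 0.27 for Trh and -0.58 for Gnrh1. Depth limits the members other than Pomc and Cartpt, which had at most 37 reads in a sample.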
